A study of Mus musculus with 11 samples.

Results

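The genes of the major histocompatibility complex (MHC) and of antigen presentation were followed through healthy oviduct and ovarian surface epithelium (OSE), their organoids, mutant oviductal clones and the tumors grown from them. All genes whose symbol starts with H2- were taken, the prefix of the mouse complex, together with B2m, Tap1, Tap2, Tapbp, Psmb8, Psmb9, Psmb10, Cd74, Ciita, Nlrc5, Erap1, Calr and Pdia3. This gave 39 of the 18305 genes in the count table, 26 by the prefix and 13 by name. They comprised 2 classical class I heavy chains (H2-K1 and H2-D1), 13 class Ib heavy chains, 7 genes that load class I molecules and 3 immunoproteasome subunits. The class Ib genes were grouped by symbol. Among them H2-K2 is annotated as a pseudogene, and H2-Q5 and H2-T10 as polymorphic pseudogenes. There were also 4 class II chains, 6 genes that load class II molecules and 2 regulators, Nlrc5 and Ciita. H2-Ke2 and H2-Ke6 carry the prefix from their place in the region. They encode a prefoldin subunit and a hydroxysteroid dehydrogenase, and neither presents antigen.

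Gene expression was measured in 27 bulk RNA libraries. Oviduct tissue (3 libraries), OSE tissue (3), oviductal organoids (3) and OSE organoids (2) were wild type and came from C57BL/6 females, and the organoids were epithelial cultures grown in medium with WNT and estrogen. Cas9-GFP organoids (3) were oviductal organoids of mice with a Cas9-P2A-EGFP cassette in the ROSA26 locus (B6J.129(B6N) background), which express Cas9 and EGFP in all tissues from the CAG promoter. Oviduct-TBP clones (3) were lines grown from single organoids of the Cas9-GFP oviduct, edited at Trp53, Brca1 (1 allele only) and 1 more tumor suppressor and selected with Nutlin-3a, which halts or kills cells with working p53. TBP tumors (6) grew under the skin of female NSG mice (NOD scid gamma), which lack mature T, B and NK cells but keep myeloid cells, and a tumor can hold host cells besides the clone. Tumor organoids (4) were grown back from TBP tumors under Nutlin-3a: T1-mes and T3-mes from tumors of mixed epithelial and mesenchymal shape, T2-epi and T4-epi from glandular epithelial ones. T1-mes and T2-epi came from tumors of the same clone in 1 mouse. The clones, tumor organoids and tumors therefore all carry the Cas9-GFP cassette and the edits, except in the host cells of the tumors.

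MHC class I molecules sit on nearly all nucleated cells and show peptides from the cytosol to CD8 T cells. Each consists of a heavy chain and the invariant light chain β2-microglobulin (B2m). The immunoproteasome cuts the peptides, the Tap1 and Tap2 pump carries them into the endoplasmic reticulum, Erap1 trims them, and calreticulin (Calr), Pdia3 and tapasin (Tapbp) hold the empty heavy chain ready for loading. MHC class II molecules, the A and E heterodimers of the mouse, are made mainly by macrophages, dendritic cells and B cells, and some epithelia can be induced to make them. They travel with the invariant chain Cd74, which H2-DM exchanges for peptides of ingested proteins and H2-O restrains. Interferon gamma raises both pathways, in part through IRF1, and Nlrc5 and Ciita switch on the class I and class II promoters on a platform of RFX, CREB and NF-Y bound to the X and Y boxes. In bulk RNA, fewer cells of a type and less RNA per cell cannot be told apart.

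Of the 39 genes, 31 lie on chromosome 17 in GRCm38 (GENCODE vM21), where the complex is. Promoters are shown for some of the genes whose levels separated groups, since both pathways are known to be switched on through promoter elements. RefSeq windows of 250 bases before the start (GRCm38.p6) were matched for 29 of the 39 genes, and not for H2-Q1, Cd74 or H2-Ab1. Pdia3 and H2-K1 were matched, with Y boxes, and are not printed. Capitals mark motif matches: in B2m the interferon-stimulated response element (GAAA, any 2 bases, GAAA) and the Y box ATTGG, in H2-Eb1 the Y boxes (CCAAT where on the other strand), in H2-Aa, H2-DMb1 and H2-Ob the pair of an X2-like TGANGNNA and a Y box that starts 15 to 30 bases after it on the same strand, and in Psmb8 the gamma-activated site (GAS) TTCNNNGAA. The last 3 are stretches around the match.
B2m, chr2:122147437-122147685, + strand, 249 bases: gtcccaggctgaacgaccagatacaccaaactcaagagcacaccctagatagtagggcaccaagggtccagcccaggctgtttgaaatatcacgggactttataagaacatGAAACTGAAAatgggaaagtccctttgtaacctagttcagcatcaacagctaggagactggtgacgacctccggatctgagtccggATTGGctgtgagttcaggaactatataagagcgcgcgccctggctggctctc
H2-Aa, chr17:34287824-34288073, - strand, 250 bases: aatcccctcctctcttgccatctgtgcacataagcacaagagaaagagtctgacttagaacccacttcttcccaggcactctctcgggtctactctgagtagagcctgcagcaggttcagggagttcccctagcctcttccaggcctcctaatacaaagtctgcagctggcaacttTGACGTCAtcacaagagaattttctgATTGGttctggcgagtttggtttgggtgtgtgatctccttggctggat
H2-Eb1, chr17:34305617-34305866, + strand, 250 bases: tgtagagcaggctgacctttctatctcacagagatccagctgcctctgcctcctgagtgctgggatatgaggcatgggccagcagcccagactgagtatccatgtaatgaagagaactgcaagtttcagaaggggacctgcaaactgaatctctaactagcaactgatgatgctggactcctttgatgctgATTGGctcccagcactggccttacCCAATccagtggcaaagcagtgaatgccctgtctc
H2-DMb1, chr17:34153105-34153134, + strand, 30 bases: TGATGCTAggctgattcactcagtgATTGG
H2-Ob, chr17:34238826-34238852, + strand, 27 bases: TGATGCAAagtcttcgctcttgATTGG
Psmb8, chr17:34198088-34198117, + strand, 30 bases: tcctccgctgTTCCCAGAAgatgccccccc
Both strands were searched. The interferon-stimulated response element was found in 2 of the 29 (B2m and H2-T23) against 2.98% of all 32851 promoter windows, and GAS in 4 (H2-DMb2, H2-M11, H2-M3 and Psmb8) against 7.02%. The Y box was found in 22 of the 29 against 33.8% of all windows. The X2-Y pair, which holds a Y box by its definition, was found in 4 (H2-Aa, H2-DMb1, H2-DMb2 and H2-Ob) against 1.24%. A match describes these letters only.

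Libraries held 82239 (TBP clone 1) to 4531767 counts (TBP clone 3), and all others at least 600579. Levels are CPM (counts scaled to a common library total, with TMM factors over all 27 libraries), and differences are log2 fold changes, called at a Benjamini-Hochberg adjusted p under 0.05 over all genes tested. A count of 0 in a library allows up to 3 counts, which is 33.5 CPM in TBP clone 1 and 0.684 to 5.18 CPM in the others, so single values of TBP clone 1 say little. The samples are not described as coming from separate animals, nor the 3 TBP libraries as 3 separate clones (some may share a clone), so p-values measure the spread between these samples. Trp53 itself was at 34.5 to 61.0 CPM in Cas9-GFP organoids, 0 to 5.02 in the clones, 4.37 to 9.22 in tumor organoids and 18.3 to 57.1 in tumors. The reads come from the 3′ ends of transcripts, and only reads that mapped to 1 place were counted. In the last 500 bases of their transcripts, 24 of the 39 genes shared no 75-base stretch with another gene, 8 shared up to 10% and 7 more, among them H2-D1 (10.1%), H2-DMb1 (20.0%, with H2-DMb2) and H2-Ke6 (61.7%, with a readthrough transcript), so these 7 are less certain. The reference carries the C57BL/6 alleles. The hosts of the tumors carry another MHC haplotype, and loss of their reads to mismatches was not tested.

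**Figure D1:**
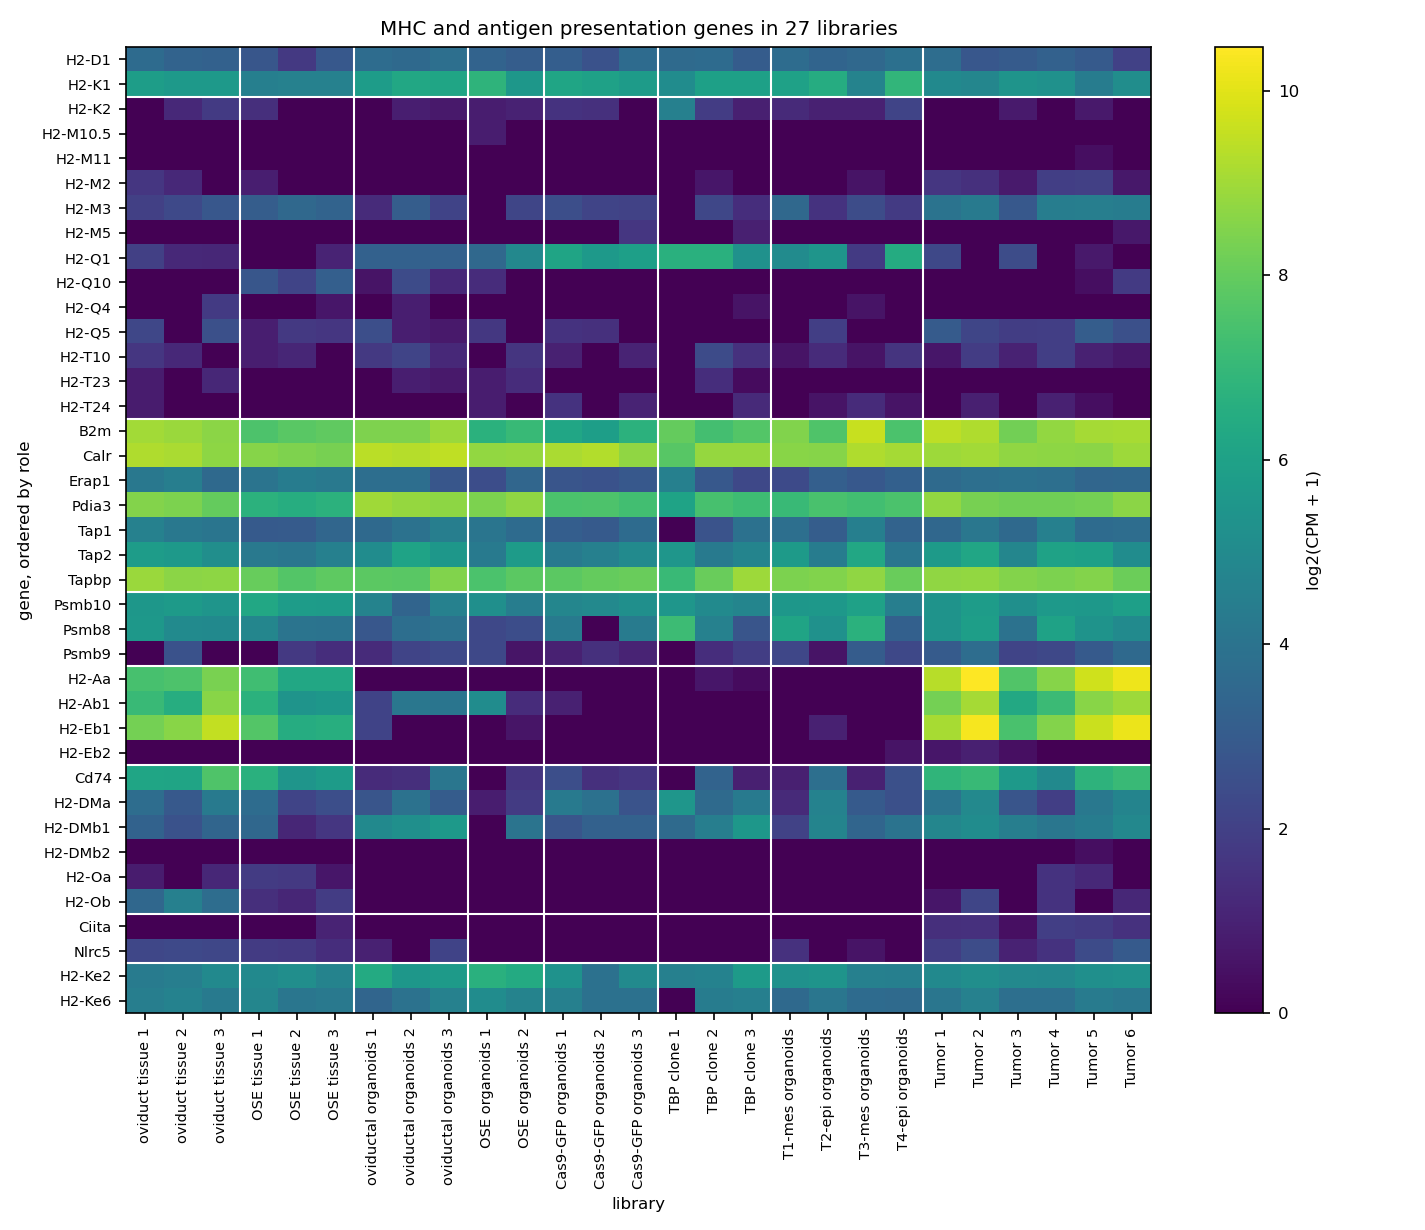
Level of each of the 39 genes (rows, by role) in each of the 27 libraries (columns, by group), as log2(CPM + 1) in color. H2-Aa and H2-Eb1 are high in the tissues and tumors and at or near 0 in organoids and clones, whereas class I loading genes are present in each group.

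Of the class I heavy chains, the classical chain H2-K1 was found in all 27 libraries. It was at 55.1, 50.0 and 50.1 CPM in oviduct tissue and 22.0, 23.3 and 23.4 in OSE tissue. In organoids it was at 54.4, 76.2 and 70.9 (oviductal), 109.9 and 45.6 (OSE) and 69.7, 62.2 and 53.5 (Cas9-GFP), and in the clones at 33.5, 61.1 and 60.7. In T1-mes, T2-epi, T3-mes and T4-epi it was at 62.4, 88.8, 24.7 and 117, and the 6 tumors had 20.3 at the lowest, 32.2 at the median and 41.3 at the highest. OSE tissue and tumors were thus low, and both epi organoids and OSE organoids 1 high. H2-D1, the other classical chain of this strain, ranged from 2.33 to 13.6 CPM over all libraries, and no comparison called it.

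H2-Q1, a class Ib chain of the Qa region, was high in most cultures of the Cas9-GFP lineage and low in tissues and tumors. It was at 0 to 2.90 CPM in the 6 tissue libraries, at 8.58, 8.46 and 8.53 in oviductal organoids and at 10.7 and 28.4 in OSE organoids. In Cas9-GFP organoids it was at 68.8, 48.4 and 59.9 and in the clones at 101, 99.6 and 38.6. In T1-mes, T2-epi, T3-mes and T4-epi it was at 31.9, 43.7, 2.43 and 86.4, and in the 6 tumors at 3.82, 0, 4.40, 0, 0.646 and 0. Cultures of the Cas9-GFP lineage, other than T3-mes, thus lay above all C57BL/6 libraries, and tissues and tumors lay near 0. The gene shared 7.28% of its 3′ end with H2-Q2.

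The remaining class Ib chains were sparse. H2-M3, which presents formylated peptides of bacteria and mitochondria, reached 6.44 to 21.6 CPM in tumors and stayed within 0 to 10.5 elsewhere. H2-Q10, a secreted chain, was listed in OSE tissue (5.92, 3.49 and 7.96), at low counts in oviductal organoids (0.477, 4.23 and 1.31) and not in oviduct tissue (0 counts in 3 libraries). H2-K2, H2-M2, H2-Q4, H2-Q5, H2-T10, H2-T23, H2-T24, H2-M5, H2-M10.5 and H2-M11 were too low for a test in any comparison. So were H2-Oa, H2-DMb2, H2-Eb2, Nlrc5 and Ciita, which makes 15 untested genes of 39. Of the 24 tested, 20 were called at least once, and H2-D1, H2-DMa, H2-Ke6 and Psmb9 never.

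B2m, the light chain, was found in all 27 libraries. It was at 514, 472 and 407 CPM in oviduct tissue and 185, 220.1 and 241 in OSE tissue. In organoids it was at 343, 344 and 474 (oviductal), 102 and 133 (OSE) and 71.7, 57.0 and 106 (Cas9-GFP), and in the clones at 257, 160.2 and 202. T1-mes, T2-epi, T3-mes and T4-epi had 357, 189.9, 765 and 183, and the 6 tumors had 302 at the lowest, 537 at the median and 688 at the highest. Cas9-GFP organoids had the lowest group mean, and both mes organoids lay above both epi organoids.

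Pdia3, the disulfide isomerase of the loading complex, was low in OSE tissue and in cultures of the Cas9-GFP lineage. It was at 371, 337 and 253 CPM in oviduct tissue, 105, 92.0 and 104 in OSE tissue, 502, 449 and 418 in oviductal and 334 and 424 in OSE organoids. In Cas9-GFP organoids it was at 179, 186 and 156, in the clones at 67.0, 169 and 147 and in tumor organoids at 138, 175, 157 and 179.5. The 6 tumors had 291 at the lowest, 315 at the median and 436 at the highest. The tumors lay in the range of oviduct tissue or just above and did not overlap with the clones or tumor organoids. Calr ranged from 212 to 699 and Tapbp from 134 to 488 over all 27 libraries, lowest in TBP clone 1 for both. Tap1 was at 15.9 to 23.2 in oviduct tissue and 6.77 to 10.1 in OSE tissue, Tap2 at 35.4 to 53.7 and 16.3 to 22.3, and Erap1 at 11.0 to 21.1 and 15.2 to 19.8.

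Psmb8, a catalytic subunit of the immunoproteasome, was at 47.2, 31.6 and 30.5 CPM in oviduct tissue and 27.1, 15.1 and 14.9 in OSE tissue. It was at 6.20, 12.7 and 14.4 in oviductal organoids and 3.82 and 4.56 in OSE organoids. Cas9-GFP organoids had 18.2, 0 and 19.2 and the clones 145, 23.0 and 5.70. Tumor organoids spread widely, with 68.8, 38.5, 103 and 8.25 in T1-mes, T2-epi, T3-mes and T4-epi, and tumors had 14.6 at the lowest, 40.6 at the median and 64.3 at the highest. Healthy organoids were below the tissues, and both mes organoids were above both epi organoids. Psmb10 was at 42.8 to 77.0 in tissues, 9.31 to 36.6 in healthy organoids and 36.2 to 58.9 in tumors. Psmb9 stayed at or under 12.2 CPM in all 27 libraries.

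**Figure D2:**
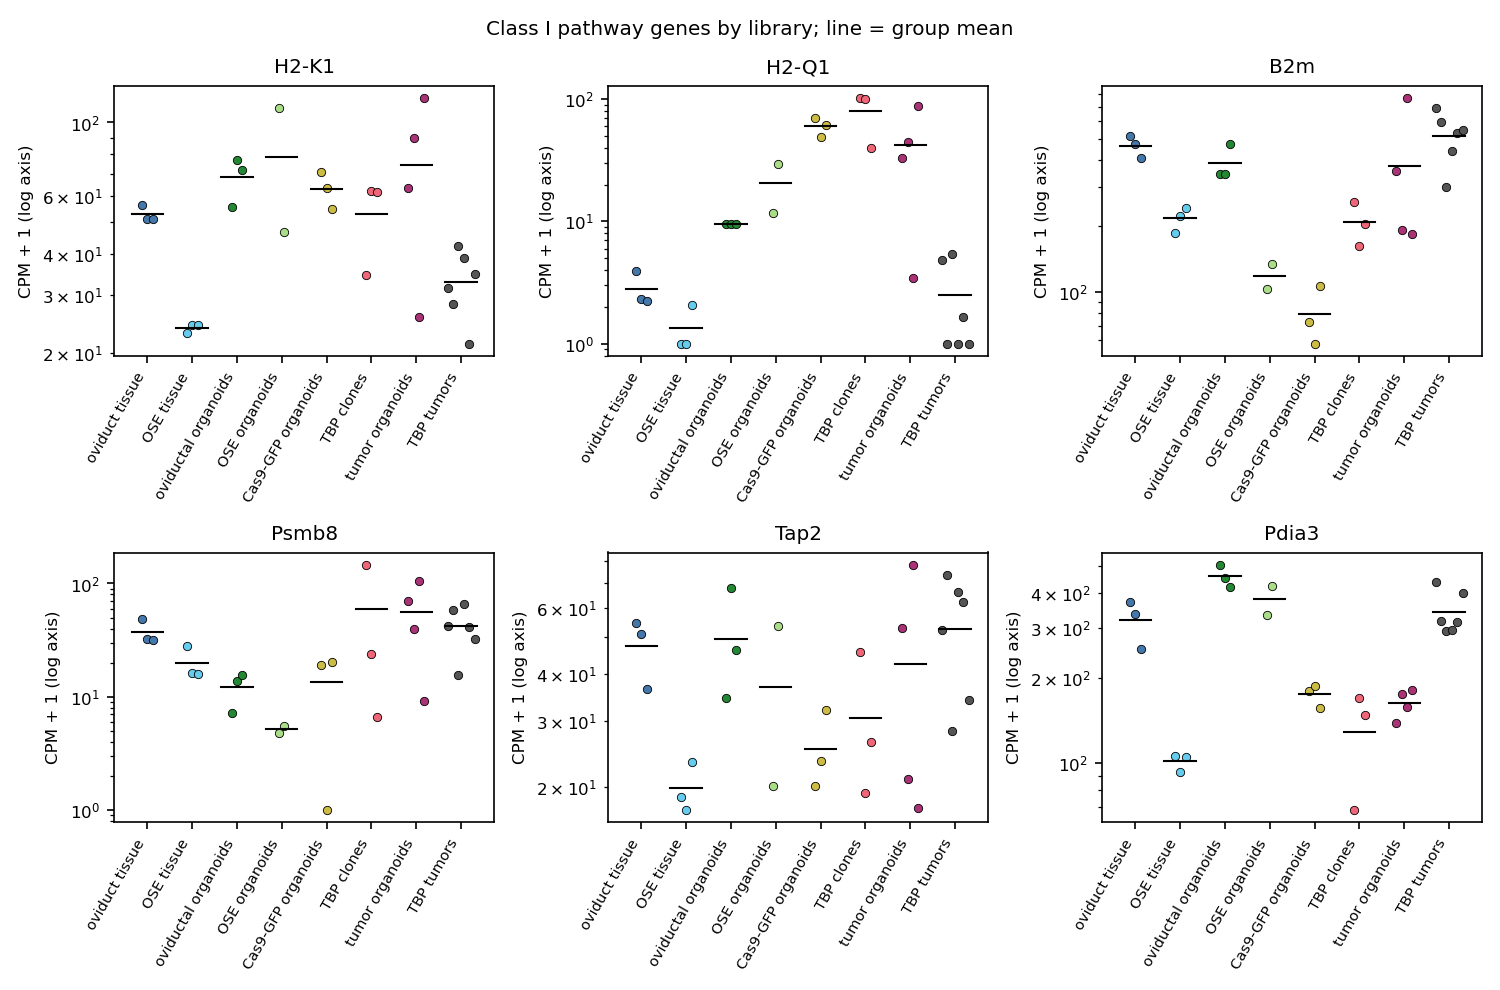
Levels (CPM + 1, log axis) of H2-K1, H2-Q1, B2m, Psmb8, Tap2 and Pdia3 in the 27 libraries, 1 point each, with the mean of each of the 8 groups as a line. H2-Q1 is high in Cas9-GFP organoids, clones and 3 of 4 tumor organoids, and B2m is lowest in Cas9-GFP organoids.

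The class II chains H2-Aa and H2-Eb1 were high in tissues and tumors and scarce in cultures. H2-Aa, the α chain of the A molecule, was at 169.8, 184 and 334 CPM in oviduct tissue and 151, 75.7 and 75.9 in OSE tissue. It had 0 counts in each of the 8 healthy and Cas9-GFP organoid libraries and the 4 tumor organoid libraries, and 2 counts over the 3 clones. In tumors 1 to 6 it was at 643, 1420.1, 199, 377, 841 and 1170.4. H2-Eb1, the β chain of the E molecule, ranked the 6 tumors in the same order, with 308, 391 and 719.7 in oviduct tissue, 205, 87.3 and 94.5 in OSE tissue and 556, 1300.4, 175, 374, 788 and 1159 in the tumors. In cultures it had 0 counts except in oviductal organoids 1 (3.34 CPM), OSE organoids 2 (0.507) and T2-epi (0.95). No gene for the α chain of E was among the members taken, so H2-Eb1 RNA does not show that E molecules were made.

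H2-Ab1, the β chain of the A molecule, was at 136, 92.1 and 389.8 CPM in oviduct tissue, 102, 41.9 and 46.2 in OSE tissue and 307, 540.1, 79.9, 140.0, 388 and 493 in tumors 1 to 6. Unlike its partner H2-Aa it was found in all 5 healthy organoid libraries, at 3.34, 16.9 and 15.7 in oviductal and 32.8 and 1.52 in OSE organoids. It was at 0 in the clones and tumor organoids, and at 1 count over the Cas9-GFP organoids. The 2 OSE organoid libraries lay far apart.

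Cd74, the invariant chain, was at 71.1, 68.4 and 192 CPM in oviduct tissue and 98.2, 43.1 and 52.5 in OSE tissue. Over the 15 culture libraries it was at 0 to 16.4, and tumors 1 to 6 had 113, 134, 47.8, 30.3, 107 and 134. Tumors 3 and 4 were the lowest tumors for each of H2-Aa, H2-Eb1, H2-Ab1 and Cd74. H2-DMb1, part of the peptide exchanger, was in turn present in cultures: 30.5, 36.4 and 49.2 in oviductal organoids against 8.71, 5.26 and 9.78 in oviduct tissue, 5.73, 8.63 and 8.55 in Cas9-GFP organoids and 11.2, 21.4 and 45.6 in the clones. H2-Ob was at 10.2, 22.4 and 12.2 in oviduct tissue, 1.16 to 2.65 in OSE tissue, 0 in all 15 cultures and 0 to 3.50 in tumors. Ciita was found in each of the 6 tumors (0.339 to 2.84) and in only 1 of the other 21 libraries.

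**Figure D3:**
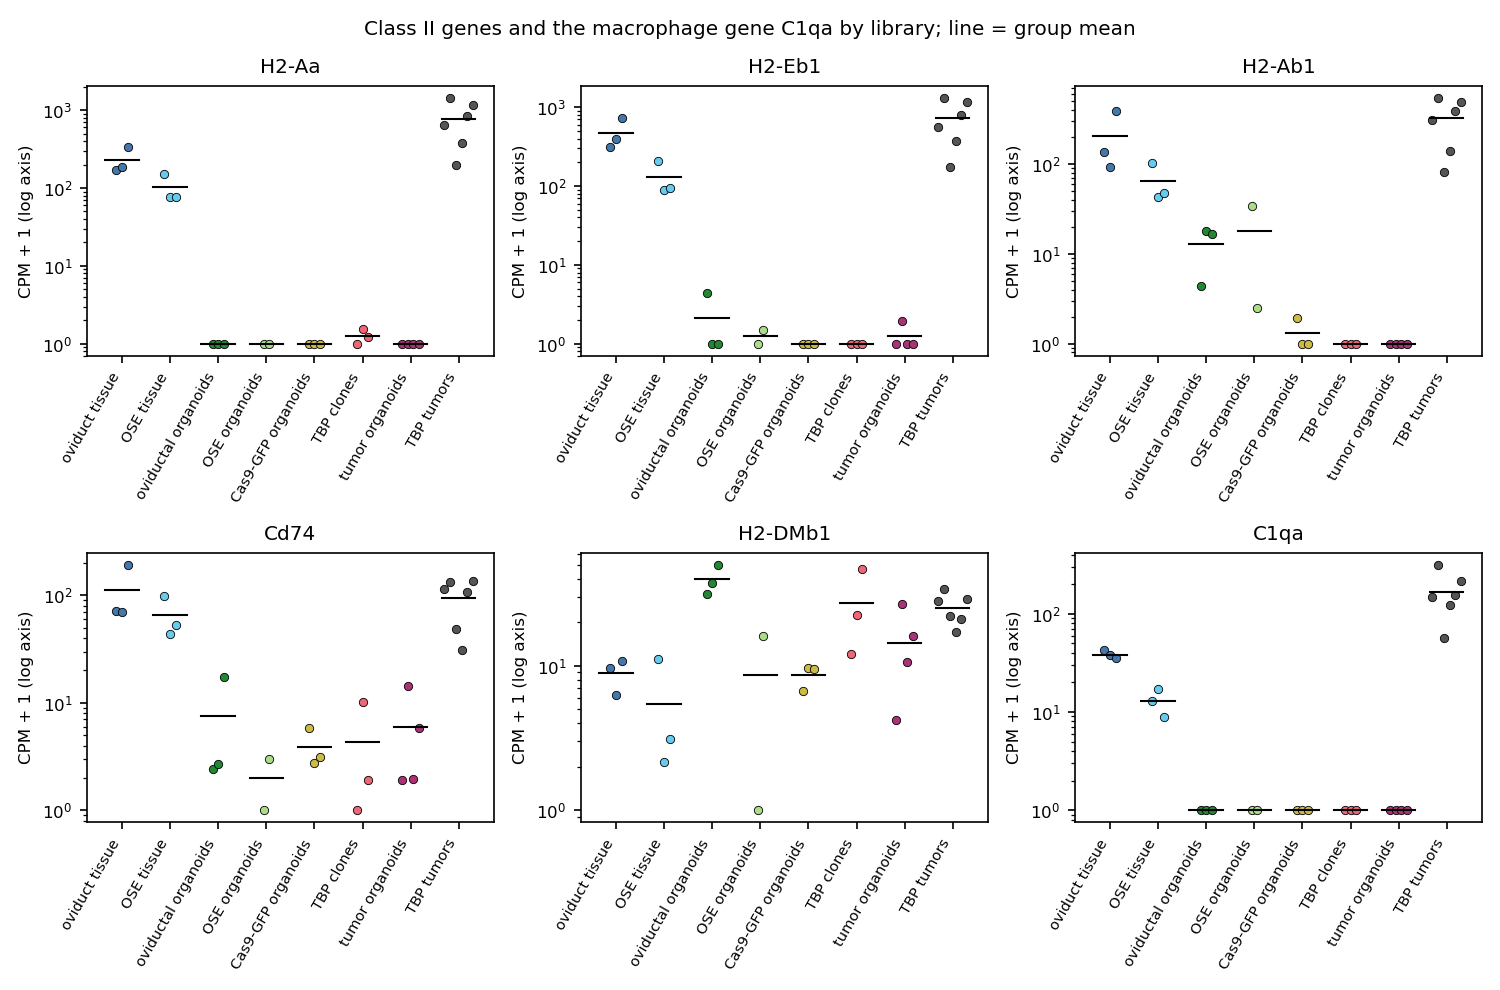
Levels (CPM + 1, log axis) of H2-Aa, H2-Eb1, H2-Ab1, Cd74, H2-DMb1 and the macrophage marker C1qa in the 27 libraries, 1 point each, with group means as lines. H2-Aa and H2-Eb1 are high in tissues and tumors and at or near 0 in cultures, as is C1qa, while H2-DMb1 is high in oviductal organoids.

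Oviduct tissue was compared with OSE tissue to see how the parent tissues differ. Genes of both pathways were higher in oviduct tissue, from 1.56-fold for Calr to 3.71-fold for H2-Eb1. Of 17 members tested, 11 were called higher and 0 lower, while 51.2% of all genes were called, 26.9% higher and 24.3% lower. No member had an unadjusted p under 0.05 in the other direction, and DESeq2, run without the filter, called 9 higher and 1 lower, H2-Q10 (0 counts against 25, at least 6.28-fold lower). The median log2 fold change was 1.01 over the members tested and 0.00 over all genes.

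In class I, H2-K1 was 2.31-fold higher (log2 fold change 1.21 ± 0.21 (SE), adjusted p = 0.00024), and B2m 2.19-fold higher (log2 fold change 1.13 ± 0.16 (SE), adjusted p = 3.11e-05). Neither overlapped between the tissues. Of 7 loading genes 6 were called higher, led by Pdia3 (log2 fold change 1.70 ± 0.17 (SE), adjusted p = 1.13e-06), with Tap2 (1.30 ± 0.25, adjusted p = 0.000456), Tap1 (1.23 ± 0.32, 0.00481), Tapbp (0.91 ± 0.16, 0.00018) and Calr (0.64 ± 0.17, 0.00562). Erap1 had a log2 fold change of -0.06. Of the immunoproteasome, Psmb8 was higher (log2 fold change 1.01 ± 0.30 (SE), adjusted p = 0.0101) and Psmb10 was not called (log2 fold change -0.38 ± 0.21 (SE), adjusted p = 0.151).

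In class II, all 3 chains tested were higher in oviduct tissue: H2-Eb1 (log2 fold change 1.89 ± 0.33 (SE), adjusted p = 0.00022), H2-Ab1 (log2 fold change 1.71 ± 0.44 (SE), adjusted p = 0.00416) and H2-Aa (log2 fold change 1.20 ± 0.29 (SE), adjusted p = 0.00279). DESeq2 did not call H2-Ab1 (adjusted p = 0.06), Psmb8 (0.0557) or Tap1 (0.0642). The call of Psmb8 was lost without oviduct tissue 1 or OSE tissue 3, and that of Tap1 without oviduct tissue 1. H2-Ab1 overlapped between the tissues, since OSE tissue 1 lay above oviduct tissue 2. Cd74 was not called (log2 fold change 0.77 ± 0.36 (SE), adjusted p = 0.0914), nor were H2-DMa, H2-Ke2 and H2-Ke6. Among listed genes of interferon gamma signaling 8 of 13 were higher and 2 lower, while 26.9% of all genes were higher and 24.3% lower. Irf1, an interferon-induced transcription factor, was lower (-1.32 ± 0.24, adjusted p = 0.000351). Of 12 interferon-stimulated genes tested 7 were higher, such as the GTPase Igtp (2.03), and 1, Gbp2, was lower (-0.82). Of 20 other processing genes tested 6 were higher and 5 lower, among the former Ctss, the cathepsin that cuts the invariant chain (1.63), and of 5 X-Y box factors 2, Nfya and Nfyc, were lower.

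Cell type markers moved with these genes. All 8 myeloid markers tested were higher in oviduct tissue (summed level of the list 362 to 546 against 94.3 to 222 CPM), as were 7 of 7 epithelial markers (1595 to 2013 against 373 to 444). All 5 granulosa and steroidogenic markers were lower (64.6 to 269.7 against 9202 to 11174) and come from cells beneath the surface epithelium. Of the 5 OSE markers Msln was lower in oviduct tissue (-0.73). Krt7 (0.25), Lrrn4 (0.20) and Wt1 (-0.14) were not called, and Upk3b, too low for a test, reached at most 6.77 CPM in OSE tissue. The part of cell makeup in the differences was not tested.

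Organoids were compared with their parent tissue to see which members epithelial cultures express. H2-Aa had 0 counts in both kinds of organoid and H2-Eb1 and Cd74 were lower in both, while H2-K1 and most class I loading genes were higher or not called. In oviductal organoids 4 of 21 members tested were called higher and 8 lower than in oviduct tissue, and 42.9% of all genes were called, 18.7% higher and 24.2% lower. In OSE organoids 4 of 21 were higher and 6 lower than in OSE tissue, where 33.1% of all genes were called, 14.5% higher and 18.6% lower. The members' median log2 fold changes were -0.45 and -0.16, and those of all genes -0.02 and -0.06.

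Among class I heavy chains, OSE organoids held 3.40-fold more H2-K1 than OSE tissue did (log2 fold change 1.76 ± 0.39 (SE), adjusted p = 0.0137), with both organoid libraries above all 3 tissue libraries. In oviductal organoids it overlapped with the tissue (log2 fold change 0.35 ± 0.22 (SE), adjusted p = 0.218). H2-Q1 was higher in both, with 70 counts against 2 in OSE organoids, 41.8-fold (95% counting interval 11.2 to 352) (adjusted p = 0.00603), and 4.08-fold in oviductal organoids (log2 fold change 2.03 ± 0.51 (SE), adjusted p = 0.00674). DESeq2 did not call the latter (adjusted p = 0.0834). Without any 1 of the 3 OSE tissue libraries H2-K1 lost its call in OSE organoids, and without OSE tissue 1 only 6 members were called in all. H2-Q10 was lower in OSE organoids, 2 counts against 25, 10.5-fold (95% counting interval 2.61 to 91.1) (adjusted p = 0.049).

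Of the loading genes, Pdia3 was higher in OSE organoids (log2 fold change 1.94 ± 0.23 (SE), adjusted p = 0.00167) and slightly in oviductal organoids (log2 fold change 0.49 ± 0.17 (SE), adjusted p = 0.0363), the latter in only 4 of 11 alternative analyses. B2m was lower in OSE organoids (log2 fold change -0.85 ± 0.25 (SE), adjusted p = 0.0406) and overlapped with the tissue in oviductal ones (log2 fold change -0.28 ± 0.18 (SE), adjusted p = 0.239). The call of B2m in OSE organoids was lost without any 1 OSE tissue library. Tapbp was lower in oviductal organoids, a call lost without oviductal organoids 2 or oviduct tissue 1 (log2 fold change -0.70 ± 0.21 (SE), adjusted p = 0.0154) and not called in OSE organoids (-0.16). Tap1, Tap2, Calr and Erap1 were not called in either, with log2 fold changes of -0.33, 0.02, 0.31 and -0.66 in oviductal and 0.78, 0.97, 0.38 and -1.18 in OSE organoids.

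The immunoproteasome subunit Psmb8 was lower in both, by 3.44-fold in oviductal (log2 fold change -1.78 ± 0.37 (SE), adjusted p = 0.00192) and 4.35-fold in OSE organoids (log2 fold change -2.12 ± 0.50 (SE), adjusted p = 0.0174). Psmb10 was lower in oviductal organoids (log2 fold change -1.26 ± 0.32 (SE), adjusted p = 0.00749) and just missed the threshold in OSE organoids (log2 fold change -1.09 ± 0.35 (SE), adjusted p = 0.0511). H2-Ke2, the prefoldin subunit, was higher in both (1.35 and 1.62, adjusted p = 0.00323 and 0.00489). H2-D1 and H2-Ke6 were called in neither.

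In class II, H2-Aa was at least 350.3-fold lower in oviductal organoids (0 counts against 647, adjusted p = 8.84e-07) and at least 108-fold lower in OSE organoids (0 against 386, adjusted p = 0.00119). H2-Eb1 fell to 7 counts from 1311 in the former (log2 fold change -8.31 ± 0.59 (SE), adjusted p = 7.36e-07) and to 1 from 495 in the latter, 414-fold (95% counting interval 74.0 to 16393) (adjusted p = 0.000985). Cd74 was lower by 17.2-fold (log2 fold change -4.10 ± 0.67 (SE), adjusted p = 0.000366) and 50.1-fold (log2 fold change -5.65 ± 0.80 (SE), adjusted p = 0.0029). H2-Ob was at least 22.2-fold lower in oviductal organoids (adjusted p = 0.000151). H2-Aa, H2-Eb1 and Cd74 did not overlap between organoids and tissue in either comparison.

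H2-Ab1 and H2-DMb1 parted from the other class II genes. H2-Ab1 was lower in oviductal organoids (log2 fold change -4.20 ± 0.61 (SE), adjusted p = 0.000155) and was not called in OSE organoids (log2 fold change -1.95 ± 0.98 (SE), adjusted p = 0.17), where OSE organoids 1 had 32.8 CPM and OSE organoids 2 had 1.52. H2-DMb1 was 4.71-fold higher in oviductal organoids (log2 fold change 2.24 ± 0.36 (SE), adjusted p = 0.000313), with all 3 organoid libraries above all 3 tissue libraries. In OSE organoids it was at 0 and 15.2 CPM against 10.2, 1.16 and 2.12 in tissue and overlapped (log2 fold change 0.90 ± 1.25 (SE), adjusted p = 0.62). H2-DMa was not called in oviductal organoids (-0.53).

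Most interferon-stimulated genes tested were lower in oviductal organoids, and myeloid markers were lower in both kinds of organoid. In oviductal organoids 4 of 13 interferon gamma signaling genes were lower and 0 higher, among them Irf1 (-1.11 ± 0.27, adjusted p = 0.00501). Of 14 interferon-stimulated genes tested 10 were lower and 2, Irgm1 and Bst2, higher. In OSE organoids 1 of 13 signaling genes was higher and 1 lower, and of 11 interferon-stimulated genes 2 were higher and 3 lower. Of all genes 18.7% were higher and 24.2% lower in oviductal organoids, and 14.5% and 18.6% in OSE organoids. Of 20 other processing genes 5 were higher and 4 lower in oviductal organoids and 4 and 4 in OSE organoids, with Ctss among the lower in both. All 9 myeloid markers tested were lower in oviductal organoids, where their sum was 5.08 to 15.1 CPM, and 6 of 7 in OSE organoids (6.08 to 8.39). The endothelial (5 of 5, 4 of 4) and fibroblast (6 of 6, 7 of 7) markers tested were lower too, and 5 of 7 and 6 of 6 epithelial markers were higher. Their part in the class II difference was not tested.

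The gap between oviduct and OSE changed from tissue to organoids for 2 of 23 members tested by an interaction term (11.7% of all genes were called). For Pdia3 the gap was smaller in organoids, by 1.34 ± 0.29 on the log2 scale (adjusted p = 0.0108). H2-Q10 was also called (adjusted p = 0.0478), but oviduct tissue had 0 counts of it in 3 libraries, so its fitted value depends on the prior count and is no measure of size.

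Oviductal and OSE organoids were then compared with each other. Of 17 members tested 0 were called by edgeR, where 0.0864% of all genes were called, and 3 had an unadjusted p under 0.05, all higher in oviductal organoids. DESeq2 called 1, B2m (adjusted p = 0.000104). B2m was 3.34-fold higher in oviductal organoids with no overlap (log2 fold change 1.74 ± 0.30 (SE), adjusted p = 0.137, unadjusted p = 0.000726). The others were H2-DMa (2.32 ± 0.84, adjusted p = 0.38) and Calr (0.61 ± 0.24, 0.406). H2-K1 (-0.18), Pdia3 (0.29), Tap1 (0.19), Tap2 (0.43) and Tapbp (0.40) were not called. Fits that left 1 OSE organoid library were not counted, since that group then has no spread of its own. None of the interferon genes listed was called. In simulated data of this design 16.5% of genes with a log2 change of 2 were recovered, so differences of this size can be missed with 3 and 2 libraries.

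Cas9-GFP organoids were compared with C57BL/6 oviductal organoids, a comparison added after the values had been seen. The light chain B2m and Pdia3 were lower in Cas9-GFP organoids and H2-Q1 was higher, each with no overlap. Of 15 members tested 1 was higher and 5 lower, and 26.3% of all genes were called, 13% higher and 13.3% lower. H2-Q1 was 6.96-fold higher (log2 fold change 2.80 ± 0.29 (SE), adjusted p = 4.56e-05). B2m was 4.87-fold lower (log2 fold change -2.28 ± 0.24 (SE), adjusted p = 5.90e-05), Pdia3 2.61-fold lower (log2 fold change -1.39 ± 0.17 (SE), adjusted p = 0.000165) and H2-DMb1 5.09-fold lower (log2 fold change -2.35 ± 0.37 (SE), adjusted p = 0.000772). Tap2 (-0.98, adjusted p = 0.0482) and H2-Ke2 (-1.04, 0.0401) were lower by less, calls that were lost in most analyses without 1 library. H2-K1 was not called (log2 fold change -0.10 ± 0.23 (SE), adjusted p = 0.774), nor were Tapbp (-0.08), Calr (-0.31), Tap1 (-0.77), Psmb8 (0.32) and Psmb10 (0.67).

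These groups also differ in mouse strain and in the cassette, which cannot be told apart. The oviduct marker Ovgp1 was at 78.3, 95.0 and 66.3 CPM in Cas9-GFP and 22938, 19899 and 14636 in C57BL/6 organoids, and 4 of 7 epithelial markers were lower and 1 higher. Of 13 interferon gamma signaling genes 2 were higher and 3 lower, among the latter Irf8 (-2.97), and Bst2 was the 1 of 5 interferon-stimulated genes called (-3.00). Their part in the difference was not tested.

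TBP clones were compared with Cas9-GFP organoids, their unedited parents. Of 14 members tested edgeR and DESeq2 each called 0, where 0.817% of all genes were called by edgeR, and 2 had an unadjusted p under 0.05. These were B2m (log2 fold change 1.37 ± 0.36 (SE), adjusted p = 0.127) and H2-DMb1 (log2 fold change 2.03 ± 0.53 (SE), adjusted p = 0.127), both higher in each clone than in each Cas9-GFP library, and without TBP clone 2 there was 1 call. H2-K1 (log2 fold change -0.12 ± 0.34 (SE), adjusted p = 0.943), H2-Q1 (log2 fold change 0.33 ± 0.43 (SE), adjusted p = 0.846) and Pdia3 (log2 fold change -0.33 ± 0.33 (SE), adjusted p = 0.798) overlapped, as did Tapbp, Tap2, Calr, Psmb8 and Psmb10. TBP clone 1, with 82239 counts, held the outlying values of Psmb8 (145 CPM), Pdia3 and Calr.

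Tumor organoids were compared with the clones that had formed the tumors. Of 16 members tested, edgeR and DESeq2 called 0, and 0 had an unadjusted p under 0.05. Over all genes edgeR called 0%, and in simulated data of this design it recovered 0.5% of genes with a log2 change of 2. B2m (log2 fold change 0.84 ± 0.55 (SE), adjusted p = 0.737), H2-K1 (log2 fold change 0.39 ± 0.51 (SE), adjusted p = 0.875), H2-Q1 (log2 fold change -0.93 ± 0.83 (SE), adjusted p = 0.808) and Tap2 (log2 fold change 0.69 ± 0.64 (SE), adjusted p = 0.813) overlapped between the groups, and the class II chains were at or near 0 in both.

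Within tumor organoids the mes and epi lines lay apart in several class I genes, though none passed the test. Of 16 members tested edgeR and DESeq2 called 0, with 1.13% of all genes called by edgeR (1% higher and 0.123% lower), and 3 had an unadjusted p under 0.05, all higher in mes. Tap2 was at 51.9 and 77.1 CPM in the mes lines and 19.9 and 16.5 in the epi lines (log2 fold change 1.83 ± 0.42 (SE), adjusted p = 0.121). B2m (log2 fold change 1.60 ± 0.46 (SE), adjusted p = 0.2) and Psmb8 (log2 fold change 1.89 ± 0.72 (SE), adjusted p = 0.326) had the same order. The heavy chains H2-K1 (log2 fold change -1.24 ± 0.51 (SE), adjusted p = 0.355) and H2-Q1 (log2 fold change -1.92 ± 1.01 (SE), adjusted p = 0.456) had the opposite order, both lowest in T3-mes, the line with the highest B2m. T3-mes lay farther from the epi lines than T1-mes in each of B2m, Tap2, H2-K1 and H2-Q1. Fits that left 1 mes or 1 epi line were not counted, since that group then has no spread of its own.

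T3-mes also stood apart in cell type markers. Its summed epithelial markers were at 269.7 CPM against 2846 in T1-mes, and 3457 and 3746 in the epi lines. Of 7 fibroblast markers 5 were called higher in mes, with sums of 3126 and 7546 against 31.3 and 102. No gene of the interferon lists was called. The part of the mesenchymal genes in these values was not tested.

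**Figure D4:**
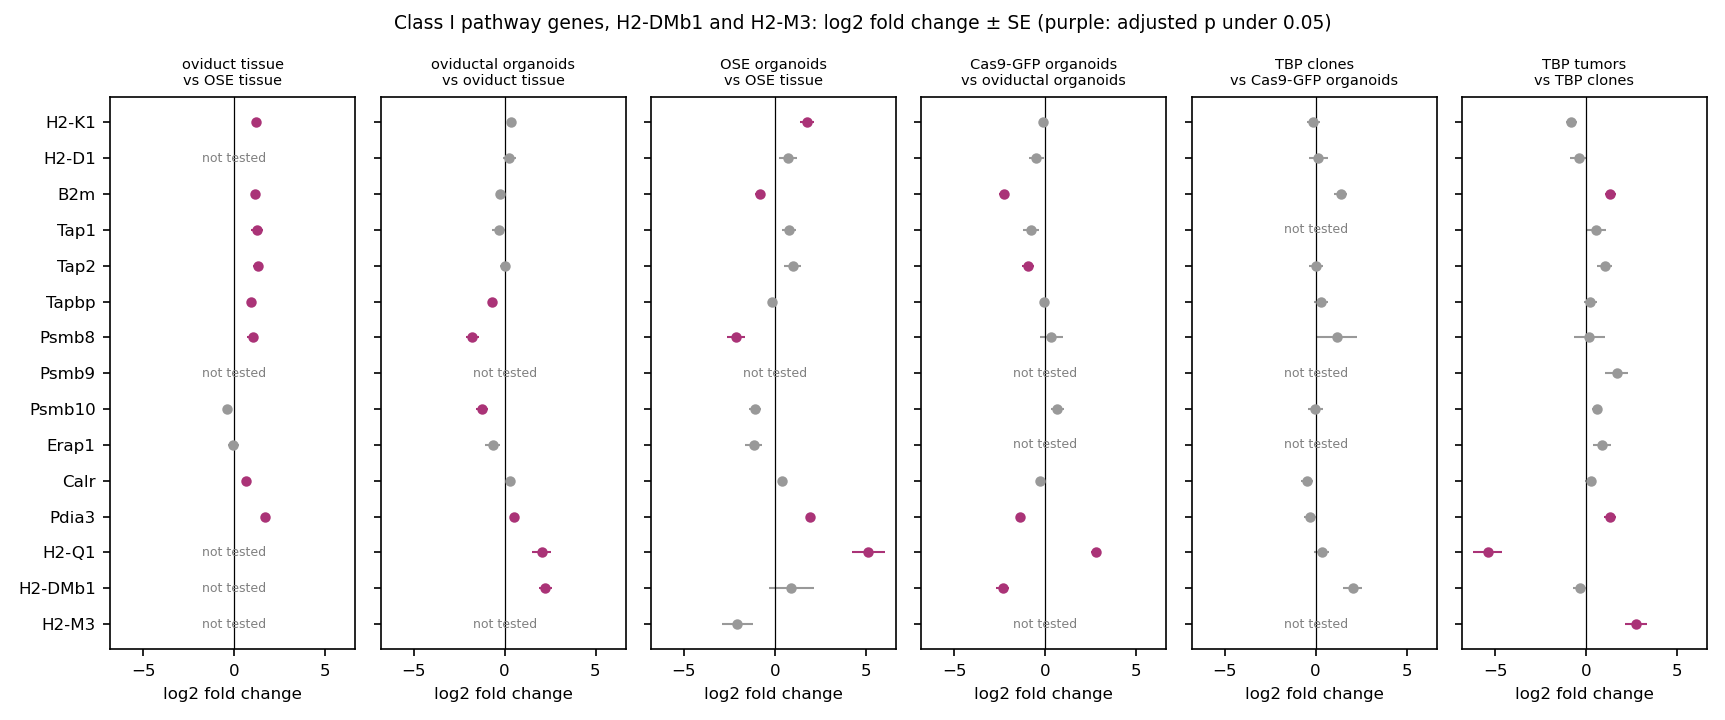
Log2 fold change (x axis, point with standard error) of 15 members (y axis) in 6 comparisons, with adjusted p under 0.05 in purple. H2-Q1 is higher in both kinds of organoid than in tissue and lower in tumors than in clones. H2-DMb1 is higher in oviductal organoids than in tissue. The class II chains are not plotted. Fitted values against a group near 0 depend on the prior count.

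TBP tumors were compared with the TBP clones they grew from, with tumor organoids and with oviduct tissue. These comparisons share the 6 tumor libraries. The class II chains, all but absent from clones and tumor organoids, were high in all 6 tumors. Against clones B2m, Pdia3 and H2-M3 were also higher, and H2-Q1 was lower. Of 22 members tested 7 were higher and 1 lower than in clones, where 31.8% of all genes were called, 20.1% higher and 11.7% lower. Against tumor organoids 7 of 22 were higher and 2 lower (27.4% of all genes, 15.1% higher and 12.3% lower), and against oviduct tissue 3 were higher and 2 lower (46.1%, 23.7% higher and 22.4% lower). The members' median log2 fold changes were 0.59, 0.47 and 0.08, and those of all genes 0.16, 0.02 and 0.08.

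In class II, H2-Aa had 8301 counts in tumors against 2 in clones, 2247-fold (95% counting interval 622 to 18553) (adjusted p = 9.57e-05), and was at least 1990.0-fold higher than in tumor organoids (adjusted p = 0.000201). H2-Eb1 was at least 1398-fold higher than in clones (adjusted p = 0.000241) and, with 7747 counts against 2, 2786-fold (95% counting interval 771 to 23008) higher than in tumor organoids (adjusted p = 9.40e-05). H2-Ab1 was at least 644-fold and at least 856-fold higher (adjusted p = 0.000352 and 0.0003). All 6 tumors lay above all clones and tumor organoids for each of these chains.

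Cd74 was 21.1-fold higher than in clones (log2 fold change 4.40 ± 0.86 (SE), adjusted p = 0.0031) and 18.6-fold higher than in tumor organoids (log2 fold change 4.21 ± 0.77 (SE), adjusted p = 0.00289), again with no overlap. H2-DMa and H2-DMb1 were called against neither. Against oviduct tissue H2-Aa was 3.26-fold higher (log2 fold change 1.71 ± 0.57 (SE), adjusted p = 0.0323), a call kept in 9 of 14 alternatives and with tumor 3 within the tissue's range. H2-Eb1 (log2 fold change 0.56 ± 0.56 (SE), adjusted p = 0.429), H2-Ab1 (0.61) and Cd74 (-0.27) overlapped with oviduct tissue. H2-DMb1 was higher than in oviduct tissue (log2 fold change 1.55 ± 0.32 (SE), adjusted p = 0.00309) and H2-Ob lower (log2 fold change -3.98 ± 0.83 (SE), adjusted p = 0.00325).

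Among class I heavy chains, H2-Q1 was 42.6-fold lower in tumors than in clones (log2 fold change -5.41 ± 0.80 (SE), adjusted p = 0.000705) and 23.1-fold lower than in tumor organoids (log2 fold change -4.53 ± 0.99 (SE), adjusted p = 0.00711). Among the tumor organoids T3-mes lay in the range of the tumors. H2-M3 was 6.69-fold higher than in clones (log2 fold change 2.74 ± 0.59 (SE), adjusted p = 0.00545), 3.52-fold higher than in tumor organoids (log2 fold change 1.82 ± 0.51 (SE), adjusted p = 0.0222, a call lost without T2-epi or T4-epi) and 3.87-fold higher than in oviduct tissue (log2 fold change 1.95 ± 0.48 (SE), adjusted p = 0.00779). H2-K1 was lower than in tumor organoids (log2 fold change -1.20 ± 0.38 (SE), adjusted p = 0.0358), kept in 6 of 15 alternatives, and than in oviduct tissue (log2 fold change -0.74 ± 0.24 (SE), adjusted p = 0.0281), kept in 9 of 14. Against clones it was not called (log2 fold change -0.81 ± 0.31 (SE), adjusted p = 0.0679). H2-D1 had log2 fold changes of -0.41, -0.62 and -0.46 in the same order and was not called.

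B2m was 2.54-fold higher in tumors than in clones with no overlap (log2 fold change 1.35 ± 0.31 (SE), adjusted p = 0.00778), and was not called against tumor organoids (log2 fold change 0.48 ± 0.40 (SE), adjusted p = 0.406) or oviduct tissue (log2 fold change 0.11 ± 0.24 (SE), adjusted p = 0.728). Pdia3 was 2.52-fold higher than in clones (log2 fold change 1.33 ± 0.33 (SE), adjusted p = 0.0106) and 2.11-fold higher than in tumor organoids (log2 fold change 1.08 ± 0.18 (SE), adjusted p = 0.00181), and was not called against oviduct tissue (log2 fold change 0.05 ± 0.20 (SE), adjusted p = 0.845). Erap1 was called against tumor organoids only (log2 fold change 0.85 ± 0.28 (SE), adjusted p = 0.0457), in 3 of 15 alternatives. Tap1, Tap2, Tapbp, Calr, Psmb8 and Psmb10 were called in none of the 3 comparisons, nor was Psmb9 against clones (log2 fold change 1.69 ± 0.62 (SE), adjusted p = 0.0572). Nlrc5, the class I regulator, was at 1.02 to 6.75 CPM in tumors and had 0 counts in the clones, too low for a test.

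Myeloid markers moved with class II against clones and tumor organoids, but less so against oviduct tissue. Of 12 myeloid markers tested 11 were higher in tumors than in clones and 11 than in tumor organoids. Against oviduct tissue all 12 were higher, while H2-Aa was the only class II chain called, and H2-Eb1, H2-Ab1 and Cd74 overlapped. The summed class II chains were at 1507, 3261, 454, 890.4, 2017 and 2822 CPM in tumors 1 to 6 beside summed myeloid markers of 2772, 4699, 1159, 1740.1, 2639 and 3207. Tumor 3 was the lowest and tumor 4 next in both, and tumor 2 the highest and tumor 6 next. C1qa, a macrophage complement gene, was at 146, 315, 55.6, 121, 153 and 215, and Ptprc, which marks all leukocytes, at 143, 148, 57.9, 60.6, 65.8 and 87.1. The sum of 8 dendritic cell markers was at 21.7 to 99.9. The defining lymphocyte markers Cd3e, Cd8a and Ms4a1 had 0 counts in all 6 tumors, whereas Cd4, which some myeloid cells also carry, was at 2.84 to 21.5.

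Other compartments moved as well. All 5 endothelial and all 7 fibroblast markers tested were higher in tumors than in clones, and summed epithelial markers spread from 175 to 2592 CPM. Whether class II RNA came from host or tumor cells was not tested.

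Interferon and processing genes changed in part, and not all in 1 direction. Of all genes 20.1% were higher and 11.7% lower than in clones, and 15.1% and 12.3% than in tumor organoids. Against oviduct tissue the shares were 23.7% and 22.4%. Against clones 4 of 13 interferon gamma signaling genes were higher and 2 lower, with Irf1 (2.29 ± 0.32, adjusted p = 0.000548), Irf8, Ifngr1 and Socs1 higher. Of 14 interferon-stimulated genes 5 were higher than in clones and 9 than in tumor organoids, and 0 lower. Against oviduct tissue 1 of 16 was higher and 6 lower. Of 23 other processing genes 4 were higher and 4 lower than in clones. Ctss, the protease Lgmn (2.50), the class II ubiquitin ligase March1 and the proteasome activator Psme2 were higher, and the constitutive proteasome subunits Psmb6 (-1.06) and Psmb7 (-1.71) were lower. Co-stimulatory Cd86 and Cd40 and the adhesion molecule Icam1 were higher, 3 of 4 such genes tested. Among 6 X-Y box factors only Nfyc was called (1.75, adjusted p = 0.00216).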

How the data were processed

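RNA was sequenced by the authors with CEL-Seq2, which tags transcripts near the 3′ end. They aligned the reads to GRCm38 with BWA, kept uniquely mapped reads and deposited raw counts per gene without correction for molecular identifiers. Copies of a molecule were thus counted separately, and limits and intervals (95%) cover counting error only. The spike-in entry was left out. Groups were taken from the sample labels and compared with edgeR 4.0.16 (quasi-likelihood test, TMM, filterByExpr) in R 4.3.3 on the libraries compared, with p-values adjusted by Benjamini and Hochberg over all genes tested. A fold against a group at 0 uses 3 counts for that group's summed libraries. DESeq2 1.42.0, RLE size factors, no filter, a fit of all 27 libraries, a replicate block, the sum of all class I heavy chains and leaving out each library were alternatives. The members, lists and named genes (18 core members plus any member called) were chosen with earlier results of these data known. Cas9-GFP against oviductal organoids and the interaction were added after values had been seen. Deviations of same-numbered libraries from their group means correlated at -0.509 to 0.138, and no comparison had every pair above 0.1, so numbers were not taken as pairs. Counts of the 37 replicate pairs differed by a chi-square per gene of at least 2.53, more than counting noise gives. Since copies were counted, this cannot exclude repeats of 1 sample. The tests were tested on simulated data. The other OSE organoid line and part of the results for the edited genes are not reported here. Plots were made in Python 3.11.15 (matplotlib 3.10.9).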

Additional observations from a re-analysis of the deposited data

Results flagged for a closer look

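In tumor organoids, H2-Eb1 was at 0.95 CPM in T2-epi and at 0 in the other 3 lines, which sets T2-epi apart from the rest of its group. In the tumors, H2-Q10 was at 2.45 CPM in tumor 6 and at or under 0.32 CPM in the other 5. Both rest on single counts to few counts. Of 19 genes checked in tumor organoids and 24 in tumors, 1 each stood apart in this way. A gene with counts in only 1 library of a group always stands apart by this rule. Its chance rate of about 1 in 20 groups therefore does not hold at such low counts.

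The change from tissue to organoids differed between oviduct and OSE for Pdia3, by -1.34 on the log2 scale, with a larger rise in OSE. For H2-Q10 the fitted difference was 7.49 on the log2 scale. Oviduct tissue had 0 counts of H2-Q10, so this value depends on the prior count of the fit.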

How the results depend on the processing

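No called difference reversed its direction under any alternative. Of 61 calls of members, 34 were kept under all alternatives and 27 were lost in at least 1. Of 142 values not called, 21 were called in at least 1. With the replicate block, members called fell from 10 to 2 between OSE organoids and OSE tissue, from 9 to 5 between tumors and tumor organoids, and from 5 to 2 between tumors and oviduct tissue. These were all 15 calls the block lost, and it gained 1, Cd74 between the tissues. Calls over all genes fell too. In the same order, 1485 higher and 1902 lower became 203 and 336, 1602 and 1309 became 954 and 552, and 2561 and 2425 became 1820 and 1932. The sum of all class I heavy chains includes H2-K1 and so cannot lie below it. The sum exceeded H2-K1 by more than 1 SD in 7 of 8 groups (46.4 against 22.9 CPM in OSE tissue and 156 against 51.8 in the clones). RLE size factors raised H2-K1 by more than 1 SD in both tissues, to 56 CPM in oviduct and 24.3 CPM in OSE tissue. Between oviductal and OSE organoids, where 0 members were called, DESeq2, no filter and the fit of all 27 libraries called 1 each (B2m). Between clones and Cas9-GFP organoids no filter called 2 and the fit of all libraries 1, and between mes and epi organoids that fit called 2. Leaving out 1 library gave 6 to 14 members for OSE organoids against OSE tissue (6 without OSE tissue 1), 0 to 2 for oviductal against OSE organoids, 0 to 1 for clones against Cas9-GFP organoids (1 without TBP clone 2), 0 to 4 for mes against epi organoids, 6 to 9 for tumors against tumor organoids and 3 to 5 for tumors against oviduct tissue (3 without oviduct tissue 1). The cause was not tested. For both comparisons with OSE organoids, the top of the range came from fits that left 1 OSE organoid library. Leaving out 1 of the other libraries gave 6 or 7 members against OSE tissue and 0 between oviductal and OSE organoids. Each such fit of mes against epi organoids left 1 line in a group. A group of 1 has no spread of its own, so these fits cannot decide how stable the calls were. Depth limits the low genes: 17 of the 39 had under 100 counts over all libraries.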
